A study of Homo sapiens with 12 samples.

Results

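The data described here are those of control NT2/D1 cells, an established human embryonal carcinoma line that the study obtained from a cell bank. The control cells were chosen by their sample titles alone and are 3 of the 12 bead arrays of the series. A probe was called expressed when its detection p-value, which sets its signal against negative control beads on the same array, was under 0.05 on all 3 control arrays. It was called not detected when that value was 0.05 or more on all 3, and mixed otherwise. A gene was expressed if any of its probes was and not detected if none of its probes was detected on any control array. Genes were ranked by the mean log2 of the normalized intensity of their brightest probe.

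Embryonal carcinoma is the pluripotent stem cell of nonseminomatous germ cell tumors. Its cells keep a self-sustaining circuit of the transcription factors POU5F1, SOX2 and NANOG, share surface proteins and RNA-binding proteins with embryonic stem cells, and can give rise to derivatives of the germ layers. NT2/D1 cells are best known for forming neurons after retinoic acid. All arrays came from this single line grown in DMEM with 10% FBS. The treated cells, which serve only as a contrast here, received 10 nM 5-aza deoxycytidine (5-aza, which traps DNA methyltransferases) renewed daily for 1 day or for 3 days, or 0.5 µM cisplatin (which crosslinks DNA) for 6 hours with a further 24 hours before harvest. The control cells are untreated according to the sample labels and vehicle treated according to the series description. Each of the 4 groups has 3 arrays, called biological triplicates by the series, while the labels do not say whether these were separate cultures. All 12 arrays shared 1 BeadChip, where each group took 3 adjacent positions, and an effect of position cannot be told apart from one of group. If the replicates were not separate cultures, the spread and the p-values below measure technical variation only.

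Control replicate 1 had 17268 detected probes, replicate 2 had 15435 and replicate 3 had 17566, at median intensities before normalization of 188.4, 180 and 184 units. Of 47231 probes, 13972 (29.6%) were expressed in control cells, 5992 were mixed and 27267 (57.7%) were not detected. A single gene symbol could be given to 30112 probes, which represent 20045 genes. Of these genes 8949 (44.6%) were expressed, 2332 were mixed and 8764 (43.7%) were not detected. The share expressed was 48.5% of 17777 protein-coding genes, 15% of 798 long non-coding RNA genes and 0.893% of 560 genes of miRNA hairpins (5 expressed), whose short mature products are not what these probes measure.

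Expressed genes had a median of 9.23 on the log2 scale of normalized intensity (599.5 units), with a lowest value of 7.64. Genes that were not detected had a median of 7.10 (136.8 units), and the mixed genes lay between them, with a median of 7.60. The normalized values hold no background subtraction, so a gene that was not detected still shows 5.80 to 7.60 log2 units, and a difference from this level understates how far a dim gene lies above background. Brightness also depends on the probe, so the rank of a gene is a rank of probe signal and not of transcript number.

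**Figure D1:**
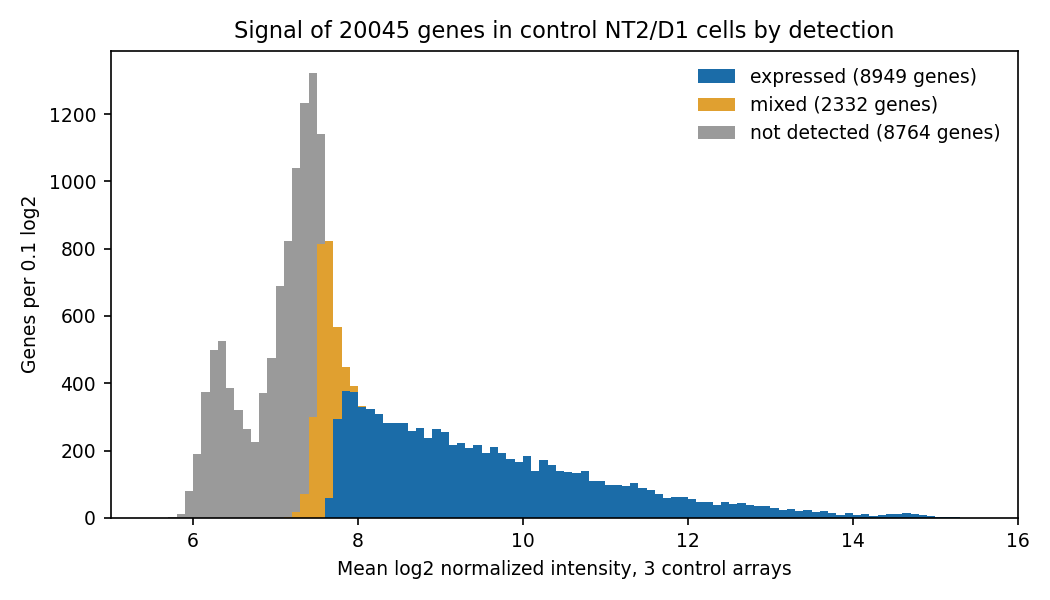
Stacked histogram of 20045 genes by their mean log2 normalized intensity over the 3 control arrays (horizontal axis) colored by detection, with the number of genes per bin on the vertical axis. The 8764 genes not detected pile up at 7.60 and below, in a small and a large peak, and the 8949 expressed genes form a long tail that reaches 15.28.

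All 6 markers of embryonal carcinoma were expressed and lay at ranks 356 to 1409 of 20045 genes, between 11.13 and 12.80 log2 units. SOX2, a partner of POU5F1 at pluripotency enhancers, was brightest with 12.70, 12.70 and 13.02 on replicates 1 to 3 (12.80 ± 0.19, SD, n = 3). DNMT3B, the de novo DNA methyltransferase of the early embryo, gave 13.13, 12.63 and 12.41 (12.72 ± 0.37, SD, n = 3). Replicate 1 was the highest array for DNMT3B and replicate 3 for SOX2, so neither array was high throughout.

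The remaining 4 markers lay close to each other. GDF3, a ligand of the TGF-beta family, gave 11.69, 11.44 and 11.43, and LIN28B, a protein that blocks maturation of the let-7 miRNAs, gave 11.38, 11.46 and 11.44. NANOG gave 11.33, 11.34 and 11.38 (11.35 ± 0.03, SD, n = 3) and POU5F1 gave 11.16, 11.22 and 11.01 (11.13 ± 0.11, SD, n = 3). Given their spread, the order of GDF3, LIN28B and NANOG is not resolved, and each was brighter than POU5F1 on every array.

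Several probes of the same marker did not give the same level. The other NANOG probe averaged 9.45 and the other SOX2 probe 11.62. The other POU5F1 probe was mixed, with a mean of 7.59, and of the 5 DNMT3B probes 3 were expressed (12.72, 11.47 and 10.89), 1 was mixed (7.47) and 1 was not detected (6.41). Which transcript forms these probes recognize was not examined.

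**Figure D2:**
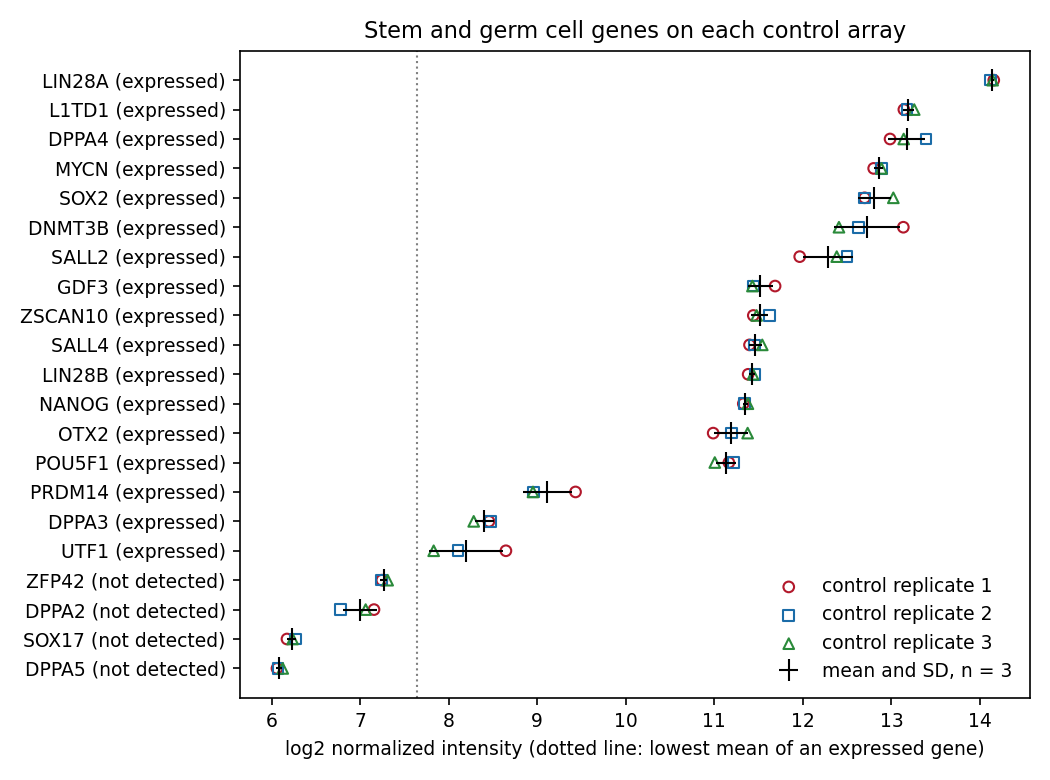
Log2 normalized intensity (horizontal axis) of 21 stem and germ cell genes on each of the 3 control arrays, with the mean and SD (n = 3) as black marks and the lowest mean of any expressed gene, 7.64, as a dotted line. LIN28A leads at 14.14, the 6 markers lie between 11.13 and 12.80, and ZFP42, DPPA2, SOX17 and DPPA5 lie left of the line.

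The stem cell genes were grouped into 6 lists with 108 different measured genes, of which 66 were expressed, 8 were mixed and 34 were not detected. Among pluripotency transcription factors 17 of 22 were expressed (77.3% against 44.6% of all genes), with a median of 9.76. MYCN, a proto-oncogene of the MYC family, was the brightest with 12.80, 12.88 and 12.89. SALL2 averaged 12.28 ± 0.28, ZSCAN10 11.51 ± 0.10 and SALL4, which binds and sustains the POU5F1 gene, 11.46 ± 0.07 (SD, n = 3 each). PRDM14 (9.11 ± 0.28) and UTF1 (8.19 ± 0.42), both chromatin-associated regulators of pluripotent cells, were dimmer and more variable, and replicate 1 was the highest array for both. ZFP42, also called REX1 and a classic marker of undifferentiated cells, was not detected (7.25, 7.24 and 7.31), and neither were MYBL2, NR5A2 and FOXD3, while NR6A1 was mixed.

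Pluripotency surface proteins and secreted signals were expressed in 17 of 21 cases, with a median of 10.2. CD24 (14.60 ± 0.07), PODXL (13.63 ± 0.12), the carrier of the TRA-1 epitopes, EPCAM (13.03 ± 0.12), CXADR (12.61 ± 0.11) and the WNT antagonist SFRP2 (12.29 ± 0.06) led this list. Of the NODAL branch, the ligand NODAL itself was not detected (6.24 ± 0.25), whereas its inhibitors LEFTY1 (8.80 ± 0.04) and LEFTY2 (9.17 ± 0.38) were expressed. FGF2 was expressed at 9.79 ± 0.18, and FGF4 and FGFR1 were not detected (all ± SD, n = 3).

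RNA-binding and chromatin proteins of pluripotent cells were expressed in 20 of 29 cases, with a median of 10.5. LIN28A, the paralog of LIN28B, held rank 82 of 20045 genes with 14.16, 14.12 and 14.14, so its arrays differed by less than 0.04. L1TD1 (13.19 ± 0.06), a protein derived from a LINE-1 element, and DPPA4 (13.17 ± 0.21) followed. Among DNA methyltransferases, DNMT1 (12.92 ± 0.16) and DNMT3B were bright, DNMT3A was dim (8.04 ± 0.09, with 2 of its 3 probes not detected) and DNMT3L, their cofactor in germ cells, was not detected. Of the TET enzymes, which oxidize methylated cytosine, TET1 was expressed (9.44 ± 0.11, all 3 probes) and TET2 was not detected (6.16). HMGA1, IGF2BP2 and IGF2BP3 were expressed above 12 log2 units, IGF2BP1 was mixed, and HMGA2 and TERT were not detected.

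Markers of the primed state, which resembles the epiblast after implantation, were expressed in 13 of 15 cases (86.7%), and those of the naive state before implantation in 6 of 18 (33.3%). ZIC2 (12.97 ± 0.12), SFRP2, SALL2, OTX2 (11.19 ± 0.19) and PTPRZ1 (10.48 ± 0.31) stood for the primed list (SD, n = 3 each). Of the naive genes that were expressed, TFAP2C at 9.51 ± 0.15 lay above the median of expressed genes and the others below it: DPPA3 at 8.40 ± 0.10, KLF2 at 8.27 ± 0.03, KLF4 at 8.21 ± 0.10, SUSD2 at 7.97 ± 0.23 and HORMAD1 at 7.69 ± 0.06. KLF17, DPPA5, ESRRB, TFCP2L1, KLF5, TBX3 and 4 further naive genes, FBP1, OOEP, NLRP7 and ARGFX, were not detected, nor was DNMT3L. Both lists hold genes that other stem lists hold as well. Of 12 measured non-coding RNAs of stem cells, the miR-302 and miR-371 hairpins among them, none was expressed by the probes on this array, and 1 was without control replicate 3.

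Germ cell genes formed 3 lists with 115 measured genes, of which 24 (20.9%) were expressed. Among markers of primordial germ cells and of seminoma, the germ cell tumor that resembles them, 10 of 22 were expressed (45.5%), close to the 44.6% of all genes. The 5 that had been fixed as defining split: PDPN (11.43 ± 0.12) and the receptor KIT (9.70 ± 0.15) were expressed, and SOX17, PRDM1 and NANOS3 were not detected (SD, n = 3 each). SOX17, which takes the place of SOX2 in human germ cells, gave 6.17, 6.27 and 6.24, well below the dimmest expressed gene. PRAME, another seminoma marker, was not detected with any of its 3 probes.

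Of 48 later germ cell and meiosis genes, 10 were expressed, 12 were mixed and 26 were not detected. DMC1, the meiotic recombinase, was by far the brightest with 12.67, 12.21 and 12.75, but the signal came from 1 of its 2 probes and the other was mixed (7.97, 7.60 and 7.88). The piRNA pathway was represented by PIWIL2 (9.56 ± 0.15, both probes), TDRD12 (9.52 ± 0.07) and TDRD1 (9.08 ± 0.16, both probes; SD, n = 3 each), while PIWIL1, PIWIL3, MAEL and ASZ1 were not detected and PIWIL4 was mixed. DDX4, the germ cell helicase, and the synaptonemal complex genes SYCP1, SYCP2 and SYCP3 were not detected. Among cancer-testis antigens only 4 of 47 were expressed (8.51%), and 3 of these, TTK (10.49 ± 0.07), CEP55 (9.81 ± 0.07) and ATAD2 (8.89 ± 0.09), are genes of dividing cells in general. The fourth was MAGEB6 (7.74 ± 0.06) with 1 of 2 probes, and 14 of the list were mixed, close to the detection limit. Without control replicate 1, 8 of the list were expressed.

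Metabolic genes were the class with the largest expressed share, 144 of 177 (81.4%). Genes of serine, glycine, folate and nucleotide synthesis were expressed in 30 of 33 cases (90.9%), and only MAT1A, the liver form of methionine adenosyltransferase, was not detected. PHGDH, the first enzyme of serine synthesis, gave 13.40, 13.93 and 13.81, the next enzyme PSAT1 averaged 12.95 ± 0.19, and PSPH, the last step, 9.45 ± 0.12. The purine enzymes PAICS (13.65 ± 0.10) and ATIC (13.24 ± 0.12) and the methionine adenosyltransferase MAT2A (12.83 ± 0.08) were also among the 6 brightest of the list (SD, n = 3 each). GLDC, the glycine cleavage decarboxylase, was expressed at 11.18 ± 0.16.

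Mitochondrial respiration was expressed in 43 of 52 cases with a median of 11.2, the highest median of any list. ATP5F1B (14.71 ± 0.14) and UQCRH (14.39 ± 0.09) led it. The 6 that were not detected were UCP3 and the tissue-restricted subunits COX4I2, COX7A1, COX6A2, COX7B2 and COX8C. The widely expressed counterparts COX4I1 (13.18 ± 0.11), COX7A2 (12.55 ± 0.09), COX6A1 (11.94 ± 0.08) and COX7B (12.30 ± 0.12) were bright (SD, n = 3 each).

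Glycolysis was expressed in 23 of 33 cases. The glucose transporter SLC2A3 (13.66 ± 0.20) was brighter on every array than SLC2A1 (10.98 ± 0.16), and LDHB (14.11 ± 0.07) was brighter than LDHA (12.38 ± 0.17), although such orders rest on different probes. HK1 reached 12.27 with 1 of its 4 probes, the other 3 being not detected (6.19 to 7.28), and HK2 averaged 9.44 ± 0.23 (SD, n = 3). Among the pyruvate dehydrogenase kinases PDK3 was expressed (10.26 ± 0.13), and PDK1, PDK2 and PDK4 were not detected.

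Cholesterol and fatty acid synthesis was expressed in 28 of 34 cases, led by SCD (13.09 ± 0.08), FASN (12.78 ± 0.25) and HMGCS1 (12.28 ± 0.17). SREBF1, a transcription factor of this pathway, was expressed at 8.68 ± 0.08, and the single probe of SREBF2 was not detected (7.15, 7.56 and 7.26). Genes of amino acid supply were expressed in 20 of 25 cases, among them BCAT1 (12.90 ± 0.04), ODC1 (12.29 ± 0.27) and ASNS (10.76 ± 0.05), whereas the cystine transporter SLC7A11 was not detected (SD, n = 3 each).

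**Figure D3:**
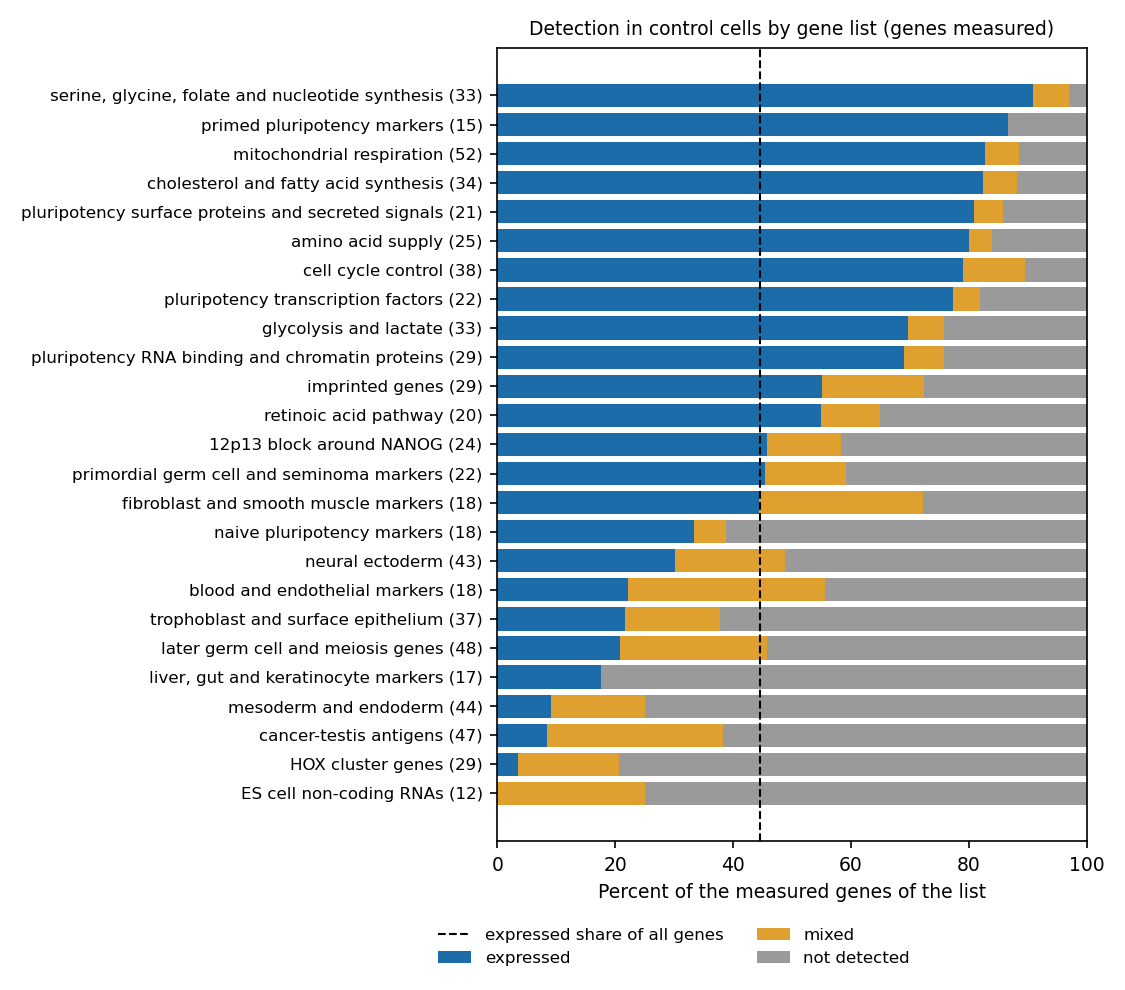
Share of the measured genes of each of 25 lists (number measured in parentheses) that were expressed, mixed or not detected on the 3 control arrays, in percent, ordered by the expressed share, with the 44.6% of all genes as a dashed line. Metabolic, primed pluripotency and cell cycle lists lie well to the right of the line, and HOX genes, cancer-testis antigens and mesoderm and endoderm genes are nearly all gray or mixed.

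Lineage genes were expressed in 37 of 173 cases (21.4%), well under the 44.6% of all genes. Mesoderm and endoderm had 4 of 44 expressed: MYH6, the cardiac myosin (9.57 ± 0.29, a single probe), PDGFRA (8.08 ± 0.16), PDGFRB (7.80 ± 0.16) and ALB (7.80 ± 0.04, with 1 of 2 probes). None of the regulators TBXT, EOMES, MIXL1, GSC, GATA4, GATA6, FOXA2 and FOXA1 was detected. The defining markers of yolk sac and endoderm (AFP, GATA4, GATA6, FOXA2 and TTR) were not detected in any of 5 cases, at 6.34 to 7.42 log2 units, and likewise the 5 of trophoblast (CGA, CGB5, GATA3, KRT7 and CDX2), at 6.25 to 7.42.

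Neural ectoderm had 13 of 43 expressed. TUBB3, a tubulin of neurons, was the brightest with 12.27, 12.80 and 12.83, followed by CRMP1 (11.86 ± 0.37, with 1 of 3 probes), the progenitor filament NES (10.87 ± 0.10) and SOX11 (10.48 ± 0.09, with 1 of 2 probes; SD, n = 3 each). LHX2, MAP2, SOX3 and OLIG2 lay between 8.68 and 9.19, and NEFM, DCX, NEFL and IRX3 between 7.86 and 8.33. PAX6 was mixed, SOX1, HES5, ZIC1, SIX3 and OTX1 were not detected, and of the 4 defining neuron markers NEFL was expressed, ELAVL3 was mixed, and STMN2 and SYT1 were not detected.

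Among trophoblast and surface epithelium genes 8 of 37 were expressed, of which KRT8 (10.82 ± 0.25), KRT18 (9.72 ± 0.16) and CLDN6 (9.96 ± 0.22) belong to simple epithelia. The other expressed members included SDC1 (9.90), TEAD4 (9.80, its other probes not detected) and ELF3 (7.88). KRT7, GRHL2 and CLDN4 were not detected. Of 29 HOX genes, which pattern the body axis and respond to retinoic acid, 1 was expressed, HOXD10, at 7.67 ± 0.09, just above the limit, 5 were mixed and 23 were not detected. Without control replicate 2, 3 HOX genes were expressed, and with a detection p-value under 0.01 none was. The retinoic acid pathway itself had 11 of 20 expressed (55% against 44.6% of all genes). CRABP2, which carries retinoic acid to the nucleus, gave 11.90 ± 0.14, the degrading enzyme CYP26A1 10.35 ± 0.18, and the receptors RXRA 9.79 ± 0.06 and RARA 8.09 ± 0.18. RARG was not detected (6.35, 6.35 and 6.30), RARB was mixed, and CYP26B1 and CYP26C1 were not detected (SD, n = 3 each).

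Of 29 imprinted genes 16 were expressed (55.2% against 44.6% of all genes). SNRPN (13.07 ± 0.22) and SNURF (13.04 ± 0.10), which share a transcript, NDN (11.40 ± 0.09), PEG3 (9.44 ± 0.20) and PEG10 (9.29 ± 0.17) are expressed from the paternal copy in most tissues and were detected. Detection was not limited to such genes. GNAS (13), IGF2R (10.63), UBE3A (10.54) and GRB10 (10.10), not classed as paternally expressed in most tissues, were expressed too. GNAS, UBE3A and GRB10 each also had a probe that was not detected. Which parental copy gave the signal was not tested. The paternally expressed MEST was not detected with any of its 3 probes (6.13, 6.36 and 6.19 for the brightest), and MEG3, which is maternally expressed, was not detected with either of its 2. H19 and IGF2 were mixed, and H19 was the least even of the list, with 7.96, 7.25 and 7.12.

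Cell cycle genes were expressed in 30 of 38 cases. CCND2 (13.12 ± 0.20) was the brightest cyclin D gene, ahead of CCND1 (11.29 ± 0.16) and CCND3 (8.31 ± 0.03) on every array, and CDK4 (12.63 ± 0.01) was brighter than CDK6 (9.18 ± 0.06). The inhibitor CDKN1A stood near the limit with 7.95, 7.99 and 8.03 and with 1 of 2 probes expressed, and CDKN2A, the gene of p16 and ARF, was not detected with any of 3 probes. RB1 was dim at 7.90 ± 0.19, RBL1 was not detected, and MKI67 was mixed (7.94, 7.65 and 7.43; SD, n = 3 each).

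NANOG, GDF3 and DPPA3 lie close together on the short arm of chromosome 12, and SLC2A3 is found in the same block. Of 24 measured genes in the block, 11 (45.8%) were expressed, close to the 44.6% of all genes. Among the 10 protein-coding genes on each side of NANOG in the annotation, those next to it, NANOGNB and SLC2A14, were not detected (7.47 and 6.73), although SLC2A3 one gene further held rank 140. GDF3 is the fourth gene on one side and DPPA3 the third, and CLEC4C between DPPA3 and NANOGNB was not detected (7.55). DPPA3 had 2 of its 3 probes expressed. Expressed genes therefore stood among undetected ones over this stretch.

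As a check on other cell types, blood markers (PTPRC, CD3E, HBB and LYZ) had none of 4 expressed, 2 mixed and 2 not detected, at a summed signal of 565.2 to 619 units per array. Of the fibroblast markers PDGFRB alone was expressed (7.80), COL1A2 and COL3A1 were mixed, and DCN and LUM were not detected, with a summed signal of 920.6 to 971.4 units. The 6 embryonal carcinoma markers summed to 23530 to 26460 units. These sums cover 4 blood, 5 fibroblast and 6 embryonal carcinoma genes and hold background, where a gene not detected had a median of 136.8 units. They are therefore not amounts of each cell type. In the longer lists, VIM (12.56 ± 0.20), THY1 (11.19 ± 0.11) and FBLN1 (10.93 ± 0.18) were bright among 18 fibroblast and smooth muscle genes (SD, n = 3 each). Of that list 8 were expressed (44.4%), close to the 44.6% of all genes. TEK was expressed with both of its probes (9.66 ± 0.06 for the brighter, SD, n = 3) among 4 of 18 blood and endothelial genes (22.2%). Of liver, gut and keratinocyte genes 3 of 17 were expressed (17.6%). In an extract of many cells, fewer cells of a type and less RNA per cell cannot be told apart.

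EEF1A1, the translation elongation factor, held the highest value of the normalized table (15.28) on all 3 arrays, followed by RPL41 (15.20 ± 0.05), F2R (15.01 ± 0.12), TMSB4X (14.99 ± 0.06), RPSAP9, RPL13AP5, PPIAL4A, LAIR1, RPL6 and TUBA1A (14.82 ± 0.10). H3-3A, TPT1, RPS12, RPLP1, RPS27, ACTG1, NACA, RPL32, RPL13AP20 and ANXA2P2 completed the first 20, down to 14.77 (SD, n = 3 each). Symbols of ribosomal proteins, their pseudogenes included, made up 9 of the first 20, 34 of the first 100 and 62 of the first 500. Signals for pseudogenes such as RPSAP9, RPL13AP5, RPL13AP20, PPIAL4A and ANXA2P2 cannot be told apart here from those of their near-identical parent genes.

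Not every bright gene was bright with all its probes. F2R, a thrombin receptor, gave 15.01 with one probe and 8.18 with the other, and LAIR1, an inhibitory receptor of leukocytes, gave 14.86, 14.87 and 14.86 with one and was not detected with the other (6.58). Among the first 100 genes 67 had 2 or more probes, 15 of these had a probe that was not detected, and 30 had a probe more than 5 log2 units below the brightest. Over all genes, 3755 with 2 or more probes were expressed, of which 1311 had every probe expressed and 1962 had at least 1 probe that was not detected on any control array. Detection of a gene in these data therefore often rests on a single probe.

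The 3 control arrays were close to each other. The SD of the log2 value over the 3 arrays had a median of 0.1214 among the 8949 expressed genes, was under 0.2 for 7249 of them (81%) and over 0.5 for 4. Across expressed genes, replicates 2 and 3 had a Pearson correlation of 0.9923, replicates 1 and 2 of 0.9883 and replicates 1 and 3 of 0.9865, where genes are not independent replicates. Replicate 1 was the array farthest from the middle value for 3730 genes (41.7%). In 10 bins of rising brightness the median SD was 0.094 in the dimmest, 0.134 in bin 7 and 0.112 in the brightest.

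Among the expressed genes of the 5 brighter bins, the largest SD was that of LOC644936, which gave 12.58 on replicate 1 against 11.40 and 11.19 on replicates 2 and 3. OAZ2 gave 10.71, 9.61 and 9.73, and CMKLR2 gave 10.57, 9.51 and 9.95. Replicate 1 was the highest array for these genes and for KIF4A, LMOD3, EXO5 and MINDY1, and the lowest for TGOLN2, LLGL1 and ERBB3. Pluripotency transcription factors had a median SD of 0.186 when expressed and primed markers of 0.194, against 0.114 for respiration and 0.114 for serine and nucleotide synthesis. Other stem lists were lower, with 0.103 for naive markers, 0.117 for surface proteins and signals and 0.149 for RNA-binding and chromatin proteins. Glycolysis had 0.171, cholesterol and fatty acid synthesis 0.147 and amino acid supply 0.146, so the spread did not divide stem from metabolic lists. The expressed stem genes with the largest SD were UTF1 (8.65, 8.11 and 7.83), TRIM71 (11.13, 10.38 and 10.45), LEFTY2 (8.74, 9.44 and 9.33) and DNMT3B. Replicate 1 was the highest array for UTF1, TRIM71 and DNMT3B and the lowest for LEFTY2.

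A property not used to call genes expressed is the sequence of their promoters. The 250 bases before the gene start were available for 15034 of the 20045 genes (RefSeq, GRCh38.p14), and CG dinucleotides, the targets of DNA methylation, were counted in them. Promoters of expressed genes held a median of 21 CG and those of genes not detected a median of 9. The share of expressed genes was 11.9% of 1938 genes with 0 to 2 CG, 20.7% of 1496 with 3 to 5, 34.6% of 1534 with 6 to 10, 55.6% of 1742 with 11 to 15 and between 63.4% and 64.9% in the 3 bins above. Among expressed genes, the median signal was 8.48 with 0 to 2 CG and 9.29 to 9.46 from 11 CG upward.

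**Figure D4:**
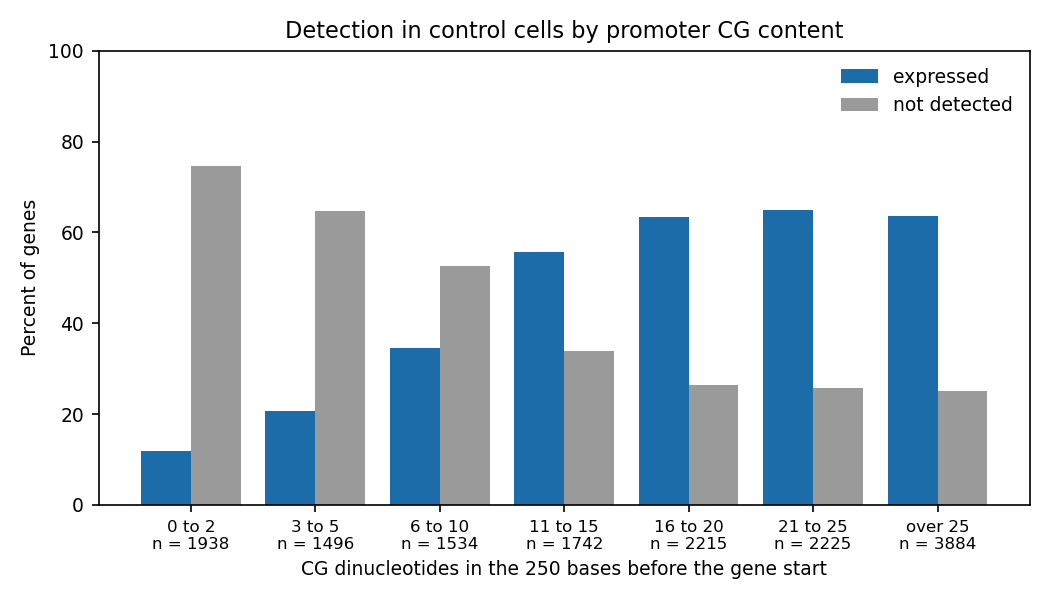
Percent of genes (vertical axis) that were expressed or not detected in control cells, by the number of CG dinucleotides in the 250 bases before the gene start (horizontal axis, with the number of genes per bin). The expressed share climbs to 55.6% at 11 to 15 CG and is nearly flat from 16 CG upward, where 25% to 26.3% of the genes are still not detected.

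The 4 promoters shown next were picked to span both ends of CG content among the genes of this cell state, with every CG in capitals. NANOG and DPPA4 were expressed with few CG (4 and 3), LIN28B was expressed with 33, and TBXT, the mesoderm regulator brachyury, was not detected with 23. They lie on GRCh38.p14 at chr12:7789152-7789401 (plus strand), chr3:109337547-109337796 (minus strand), chr6:104940715-104940964 (plus strand) and chr6:166168656-166168905 (minus strand), and each is written 5′ to 3′ on the strand of its gene.
NANOG: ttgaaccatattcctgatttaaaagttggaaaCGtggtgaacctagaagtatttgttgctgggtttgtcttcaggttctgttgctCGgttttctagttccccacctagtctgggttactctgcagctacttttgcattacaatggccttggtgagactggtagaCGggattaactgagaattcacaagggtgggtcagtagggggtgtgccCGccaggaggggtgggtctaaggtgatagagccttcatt
DPPA4: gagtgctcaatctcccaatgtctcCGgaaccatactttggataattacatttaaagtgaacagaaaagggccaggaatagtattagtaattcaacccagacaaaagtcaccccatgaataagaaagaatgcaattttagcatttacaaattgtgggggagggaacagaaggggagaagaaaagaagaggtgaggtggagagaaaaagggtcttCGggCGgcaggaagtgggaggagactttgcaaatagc
LIN28B: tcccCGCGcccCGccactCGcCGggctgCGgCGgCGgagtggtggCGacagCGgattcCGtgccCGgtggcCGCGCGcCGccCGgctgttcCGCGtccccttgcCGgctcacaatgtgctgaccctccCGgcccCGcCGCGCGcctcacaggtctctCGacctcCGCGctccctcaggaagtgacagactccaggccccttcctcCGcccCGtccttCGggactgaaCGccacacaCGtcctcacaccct
TBXT: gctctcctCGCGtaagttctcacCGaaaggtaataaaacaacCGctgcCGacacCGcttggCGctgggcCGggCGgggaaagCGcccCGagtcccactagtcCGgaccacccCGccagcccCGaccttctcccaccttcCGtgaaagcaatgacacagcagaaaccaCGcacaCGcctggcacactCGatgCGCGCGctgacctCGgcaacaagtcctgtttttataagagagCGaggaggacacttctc

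Several genes of this cell state were expressed with few CG, and many lineage genes with many CG were not detected. GDF3 (0 CG), NANOG, DPPA4 and DNMT3B (3 CG) were bright with few CG, whereas SOX2 had 20 and L1TD1 12. Of the 11 expressed pluripotency transcription factors with a promoter sequence, 3 had 5 or fewer CG. Over all 7357 expressed genes with a promoter sequence, 230 had 0 to 2 CG and 310 had 3 to 5. In the other direction, 18 of the 22 mesoderm and endoderm genes that were not detected had 16 or more CG, with a median of 24, and 10 of 14 in neural ectoderm, with a median of 22.5. Over all 5938 genes not detected that had a promoter sequence, the median was 9 and the upper quartile 21. The 26 cancer-testis antigens not detected had a median of 9, with 3 at 16 or more.

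Motifs in the same 250 bases were searched on both strands as exact letters, and none of the 4 motifs contains another. The TATA box TATAAA occurred in 5.26% of the promoters of expressed genes, in 14% of those of genes not detected and in 9.12% of all 15034. The Sp1-type GC box GGGCGG occurred in 68.3% of the promoters of expressed genes, 42.4% of those not detected and 56.1% of all. The median share of G and C bases was 64.8% in promoters of expressed genes and 58% in those of genes not detected. The motif shares are not adjusted for this difference in base content. The CCAAT box occurred in 36.4% of those expressed, 32.9% of those not detected and 34.7% of all, and the octamer ATGCAAAT, which POU factors bind, in 1.21% of those expressed, 2.05% of those not detected and 1.63% of all. As exact letters, the promoter of NANOG shown above held none of them, and that of LIN28B held GGGCGG. That of DPPA4 held CCAAT and GGGCGG, and that of TBXT held TATAAA and GGGCGG. Sites that differ from these letters in any base were not searched. Whether the NANOG promoter holds a variant of the octamer that POU factors bind was therefore not tested.

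Most genes expressed in control cells were also expressed in treated cells. Of 8949, 8611 were expressed on all 3 arrays after 1 day of 5-aza, 8396 after 3 days and 8545 after cisplatin, and 41, 122 and 19 were then not detected on any. Of 8764 genes not detected in control cells, 30, 142 and 67 were expressed in these groups. The arrays themselves differed in detected probes. There were 15435 to 17566 on the control arrays, 16031 to 16488 after 1 day, 15658 to 16123 after 3 days and 16318 to 19824 after cisplatin. The groups are therefore not compared at equal detection, and the part of this in the counts was not tested. Among 270 list genes not detected in control cells, the number that were expressed was 1 (CD34) after 1 day, 7 after 3 days (CD34, VWF, ACTA2, CNN1, PDK2, STMN2 and CYP26B1) and 2 after cisplatin (ACTA2 and STMN2). Regulators such as GATA4, GATA6, SOX17, TBXT and DDX4 were not among them.

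Differences in level were tested on background-corrected, quantile-normalized log2 values of the brightest probe of 11139 genes in limma, with a Benjamini-Hochberg adjusted p under 0.05. The F test over the 3 treatments called 2277 genes (20.4%). After 1 day of 5-aza no gene was called higher (0%) or lower (0%), with 622 genes at an unadjusted p under 0.05 and also 0 by limma on the deposited normalized values. This count was 73 without the cisplatin arrays and 127 with array weights. After 3 days 1170 genes were higher (10.5%) and 731 lower (6.56%), and after cisplatin 102 were higher (0.916%) and 57 lower (0.512%). With each array scaled to its median in place of quantile normalization the split at 3 days was 622 higher and 1102 lower and that after cisplatin 144 higher and 10 lower. The median 3-day difference over all genes was then -0.17, against 0.01 with quantile normalization, and the counts by class below are given on both scales. Before normalization the median intensity was 180 to 188.4 units on the control arrays, 154.3 to 165.5 at 3 days and 160.3 to 173.5 after cisplatin. How this bears on the split was not tested.

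These counts depended on single arrays. Leaving out 1 array gave 989 calls (without control replicate 1) to 3121 (without cisplatin replicate 3) at 3 days, with 1257 without control replicate 2 and 1046 to 1161 when a 3-day array was left out. For cisplatin it gave 39 to 48 when a control was left out, 75 to 92 when a 5-aza array was, 79 without cisplatin replicate 2, 470 without replicate 3 and 3059 without replicate 1.

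Of 73 stem cell genes tested, 20 were lower and 4 higher after 3 days of 5-aza, with a median difference of -0.37, and by median scaling 30 were lower and 2 higher, with a median of -0.67. Over all genes tested 10.5% were higher and 6.56% lower. The study had already reported lower pluripotency genes after 5-aza from these arrays, NANOG and GDF3 among them. All gene lists were chosen with earlier results of these data known, so the counts by list are a description and not an independent test. Among the 18 pluripotency transcription factors tested 6 were lower and none higher, and 9 were lower and none higher both by median scaling and on the deposited normalized values. Of 13 primed markers tested 4 were lower and none higher (median -0.39). The naive list did not fall as a whole, with 3 of 6 higher and 2 lower (median 0.24). By median scaling 1 naive marker was higher and 1 lower (median 0.08). NANOG gave 9.82, 10.12 and 9.97 after 3 days of 5-aza, against 11.26, 11.27 and 11.31 in control cells (difference -1.31, SE 0.15, adjusted p = 5.2e-05). GDF3 gave 9.43, 9.33 and 9.52, against 11.63, 11.38 and 11.36 in control cells (difference -2.03, SE 0.18, adjusted p = 7.0e-06). The 3-day and the control arrays did not overlap for either gene. On the same arrays 4 of 15 fibroblast and smooth muscle markers tested were higher and 1 lower, also 4 higher and 2 lower by median scaling, among them S100A4 (difference 2.70, adjusted p = 6.2e-06), COL1A1 (difference 1.85, adjusted p = 6.6e-05) and CNN1 (at least 1.62-fold higher, adjusted p = 0.0003). The summed signal of the 18 markers of that list was 13650 to 15090 units after 3 days of 5-aza, against 12640 to 14680 in control cells, and their part in the differences of the stem cell genes was not tested. VIM, THY1 and FBLN1, bright in control cells already, weigh most in this sum. It can therefore hardly show a change of dimmer members such as COL1A1 and CNN1.

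DNMT3B also fell (difference -1.45, SE 0.27, adjusted p = 0.0025). POU5F1 did not pass the threshold (difference -0.61, adjusted p = 0.058), although it did under 6 of the alternatives tried, and SOX2 (difference -0.10, adjusted p = 0.82) and LIN28B (difference -0.27, adjusted p = 0.23) did not. After cisplatin none of the 6 markers passed, with differences of -0.63 for SOX2 to 0.31 for POU5F1. HESX1, a homeobox gene of the anterior epiblast, was lower at 3 days (difference -2.46, adjusted p = 0.0003) and after cisplatin (difference -2.02, adjusted p = 0.010), where it did not pass once any single control or cisplatin replicate 2 was left out. LEFTY1 gave 6.05, 6.01 and 6.04 after 3 days of 5-aza, where it was not detected, against 8.27, 8.35 and 8.36 in control cells, and was at least 3.80-fold lower (adjusted p = 7.4e-06).

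**Figure D5:**
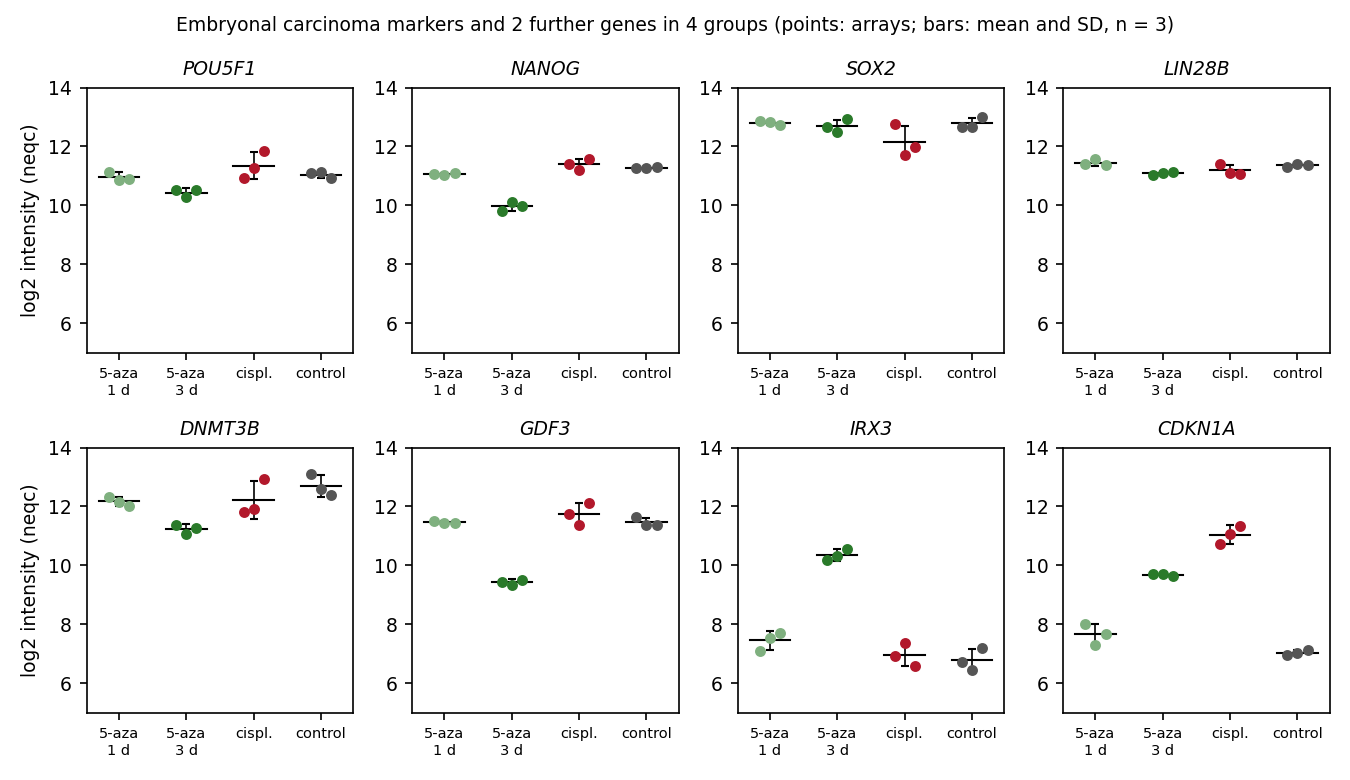
Background-corrected log2 intensity (vertical axes) of the 6 embryonal carcinoma markers, IRX3 and CDKN1A on the 3 arrays of each group, with mean and SD (n = 3), for cells after 5-aza for 1 day, 5-aza for 3 days and cisplatin, and for control cells. NANOG, GDF3 and DNMT3B lie lower after 3 days of 5-aza than in control cells, where IRX3 and CDKN1A are near the detection limit. IRX3 lies higher after 3 days of 5-aza, and CDKN1A both after 3 days of 5-aza and after cisplatin.

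The other classes changed less evenly. Of 152 metabolic genes tested at 3 days, 10 were higher and 19 lower, against 10.5% higher and 6.56% lower over all genes, and by median scaling 4 were higher and 31 lower. Of the 29 genes of cholesterol and fatty acid synthesis 1 was higher and 8 were lower, with a median difference of -0.53, and by median scaling 1 was higher and 12 were lower, with a median of -0.71. Of 48 germ cell genes 1 was higher, TFAP2C (difference 0.58, adjusted p = 0.041), and 1 lower, KLF4 (difference -0.88, adjusted p = 0.013), and neither passed the threshold by median scaling. TFAP2C also failed it once any single control or 5-aza array was left out, and KLF4 without control replicate 2 or 3-day replicate 2. Of 59 lineage genes 11 were higher and 7 lower, against the same 10.5% and 6.56% over all genes, and by median scaling 10 were higher and 9 lower. IRX3, a homeobox gene of the neural tube that was just detectable in control cells, gave 10.18, 10.31 and 10.57 after 3 days of 5-aza, against 6.73, 6.46 and 7.19 in control cells, an 11.8-fold difference (adjusted p = 8.9e-07).

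In the retinoic acid pathway 2 of the degrading enzymes, CYP26A1 and CYP26B1, moved apart. CYP26A1 had a difference of -1.74 (adjusted p = 8.0e-05) and CYP26B1, not detected in control cells, was at least 3.12-fold higher after 3 days of 5-aza (adjusted p = 4.8e-06). CDKN1A, the p53-induced inhibitor of cyclin-dependent kinases, gave 10.71, 11.06 and 11.35 after cisplatin, against 6.95, 7.04 and 7.12 in control cells, a 16-fold difference (adjusted p = 7.6e-08). CDKN1A was also higher after 3 days of 5-aza, with 9.70, 9.70 and 9.64, a 6.26-fold difference (adjusted p = 1.4e-06). ACTA2, smooth muscle actin, was not detected in control cells and was at least 4.05-fold higher after cisplatin (adjusted p = 1.4e-06), and the summed signal of the 18 fibroblast and smooth muscle markers was 14070 to 22510 units in cisplatin cells, against 12640 to 14680 in control cells. ACTA2 belongs to that list, the ranges of the 2 groups overlap, and in control cells VIM, THY1 and FBLN1 weigh most in this sum. The part of other cells in these differences was not tested. The 3 treatments share their control arrays and are not independent of each other.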

How the data were processed

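Total RNA was isolated with Trizol, amplified and biotin-labelled with an Ambion MessageAmp kit and hybridized to Illumina HT-12 v4 arrays. GenomeStudio is named in the submitters' processing notes (version not given in the sources used here). One deposited table gives, for 47231 probes, the linear bead intensity before normalization, with background left in, and beside it the detection p-value that the authors exported. In the other deposited table the authors gave quantile-normalized intensity of 47226 probes, again linear and with background left in. Spearman correlation between the tables was 1 for the same array and 0.954 or less for different arrays.

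Levels in control cells are log2 of the deposited normalized intensity. Symbols came from the platform annotation, updated through RefSeq, for 30112 probes, with 8 probes naming several genes and 17111 unnamed. Each gene was represented by its brightest probe. Treatments were tested in limma 3.58.1 under R 4.3.3 on the non-normalized table after normal-exponential background correction (offset 16), quantile normalization and log2, keeping probes detected on at least 3 of the 12 arrays, with all 4 groups in a single model (8 residual and 5.64 prior degrees of freedom) and no replicate block. The fit was tested on simulated data. Where a gene was undetected on a whole group, its fold was taken against each array's floor, the lowest signal of a detected probe, and is given as "at least". Other steps used Python 3.11.15 with pandas and matplotlib. Members and gene lists were chosen with earlier results of these data known. Named genes are the 6 markers, list members with up to 6 of the brightest of each list given values, the 20 brightest genes, the 10 most variable in the 5 brighter of 10 bins, neighbors of NANOG, and for the treatments up to 3 called members per class with the largest change, with further members named by their detection only or beside a contrasting member. The number of arrays limits the precision. Alternatives were the detection threshold, the rule for genes with several probes, the normalization, the filter, array weights, the replicate block and leaving out each array.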

Additional observations from a re-analysis of the deposited data

How the results depend on the processing

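Detection calls moved little with the threshold and more with the rule for several probes. With a detection p-value under 0.01 the number of expressed genes was 8322, and on each pair of control arrays it was 9102 to 9576, against 8949 on all 3. When every probe of a gene had to be detected, 6505 genes were expressed, with 15 germ cell genes in place of 24 and 9 markers of other cells in place of 15. The percentile of POU5F1 was 83.7 and that of NANOG 91.8 when probes were averaged.

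The F test gave 5036 calls with array weights, 4056 without the cisplatin arrays and 1022 to 5138 when 1 array was left out. For 1 day of 5-aza there were 127 calls with array weights, 73 without the cisplatin arrays and 0 with any array left out. For 3 days there were 4055 with array weights, 4262 without the cisplatin arrays and 989 to 3121 with 1 array left out. For cisplatin there were 633 with array weights and 39 to 3059 with 1 array left out. The causes were not tested. No called gene that is named changed direction in the alternatives run, SOX2 at 3 days, which was not called, changed sign in some, and the balance of calls turned. With median scaling the 3-day split was 622 higher and 1102 lower (36.1% higher), against 1170 and 731 (61.5% higher) with quantile normalization. The 3-day median of germ cell genes was then -0.07 in place of 0.07, and that of serine, glycine, folate and nucleotide synthesis -0.23 in place of 0.07. The medians of amino acid supply, imprinted genes and the lists of primordial germ cell and of later germ cell genes also turned from positive to negative, as did that of all genes.

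Replicate numbers did not pair the arrays: the 18 correlations of deviations between arrays of the same number had a median of 0.0166 (-0.518 to 0.223). With the replicate block the F test gave 1736 calls, 3 days of 5-aza 1614 and cisplatin 88.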
